A study of Mus musculus with 12 samples.

Results

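The genes described here are 9 outputs of the circadian clock in mouse liver, namely Dbp, Tef, Hlf, Nfil3, Ciart, Bhlhe40, Bhlhe41, Usp2 and Rora. They were taken from a fixed list of gene symbols, chosen with earlier results of these data known. All 9 were found among the 24527 symbols of the count table. All 9 were also among the 13204 genes that passed the filter on low counts. RNA came from the livers of 12 mice at 39 weeks of age, offspring of CF1 dams and B6SJL sires. Natural females, IVF females, natural males and IVF males made up 4 groups of 3 animals, where IVF means that the eggs were fertilized in vitro and natural means conceived by mating. The study asked what IVF does to the adult liver in each sex. The labels used here give neither the hour of the day at which an animal was killed nor its feeding state, and no result below could be adjusted for them.

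The clock is a feedback loop. CLOCK or NPAS2 pairs with ARNTL (BMAL1), binds E-box motifs and switches on the Per and Cry repressors together with output genes. DBP, TEF and HLF are the PAR bZIP activators, which bind D-box motifs in genes of hepatic metabolism, and NFIL3 (E4BP4) is a bZIP repressor of the same motifs. CIART, BHLHE40 (DEC1) and BHLHE41 (DEC2) repress CLOCK-ARNTL activity, and RORA is a nuclear receptor that activates Arntl and other genes through receptor response elements. Usp2 encodes a deubiquitinating enzyme, so that 8 of the 9 genes encode regulators of transcription and Usp2 is a clock-controlled gene of another kind. In mouse liver Dbp and Ciart are known for strong daily rhythms, with Arntl peaking at a nearly opposite time.

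Promoter windows of 300 bases (250 before and 50 after an annotated start, RefSeq, GRCm38.p6) were found for 8 of the 9 genes, as 9 windows, and Bhlhe40 had none. The E-box CACGTG, which reads the same on both strands, was present in those of Ciart, Tef and Bhlhe41. It was in 7.15% of all 32851 windows of this length. Ciart carried 3 copies, beginning 116, 58 and 44 bases before the start, where 0.0883% of all windows had 3 or more. The D-box TTATGTAA, searched on both strands, was in 0 of the 8 genes' windows and in 0.938% of all windows. The receptor half-site AGGTCA, on either strand, was in the window of Nfil3 and in 16.3% of all windows. These are matches of letters only, and Dbp, Usp2, Hlf and Rora had none of the 3 motifs in these windows. The Usp2 window, chr9:44084670-44084969 (plus strand), lay inside the gene, which begins at 44067021, so the gene's first start was not searched. The sequences with an E-box are shown 5′ to 3′ on the strand of the gene with the E-box in capitals, whole for Ciart at chr3:95882179-95882478 (minus strand) because it had the widest range of levels, and as 60 bases for the others. Those are Tef at its upstream start, chr15:81802519-81802578 (plus strand), Tef at its downstream start, chr15:81811249-81811308 (plus strand), and Bhlhe41 at chr6:145865541-145865600 (minus strand).
Ciart: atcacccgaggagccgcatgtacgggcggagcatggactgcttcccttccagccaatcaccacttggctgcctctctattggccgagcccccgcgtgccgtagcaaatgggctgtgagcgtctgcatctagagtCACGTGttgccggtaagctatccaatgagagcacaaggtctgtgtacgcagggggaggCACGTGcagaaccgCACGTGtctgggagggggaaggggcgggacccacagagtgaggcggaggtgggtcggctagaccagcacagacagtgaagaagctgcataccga
Tef, upstream start: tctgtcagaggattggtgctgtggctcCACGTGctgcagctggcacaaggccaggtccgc
Tef, downstream start: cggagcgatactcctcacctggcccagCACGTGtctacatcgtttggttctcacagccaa
Bhlhe41: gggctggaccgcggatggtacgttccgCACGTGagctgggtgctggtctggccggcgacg

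Total counts ranged from 6826534 to 27832271 per library, and the smallest totals were those of IVF female replicate 1 and natural female replicate 2 (8056230), called shallow here. A count of 0 allowed up to 0.439 CPM in the smallest library, where CPM stands for read counts scaled to a common library size after TMM normalization. Libraries of one group differed by at least 80.7 in chi-square per degree of freedom, so none was counted as a repeat of another. Genes of hepatocytes summed to between 96740 and 138700 CPM in all 12 libraries, and all 10 of these markers passed the filter. Titles carry an animal number but no litter is named, and IVF female replicate 1 and IVF male replicate 2 share the first part of that number, whose meaning is not given. P-values therefore measure the spread between these animals. In bulk RNA, fewer cells of a type and less RNA per cell cannot be told apart.

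Per kilobase of annotated exon, Bhlhe40, Dbp, Tef and Hlf had the highest median levels and Bhlhe41 the lowest. The median over the 12 libraries was 21.8 CPM per kb for Bhlhe40, 18.9 for Dbp, 17.7 for Tef, 14.4 for Hlf, 10.4 for Rora, 9.50 for Nfil3, 6.72 for Usp2, 2.81 for Ciart and 0.935 for Bhlhe41. Each gene's range overlapped that of its neighbours in this order. The highest Bhlhe41 level, 1.501 CPM per kb, lay under the lowest level of Dbp, 3.00 CPM per kb. Counting by strand was not stated for these files, and exons of Dbp (chr7:45705088-45710203, GRCm38) overlap those of Sphk2 on the other strand over 18.0% of their length. For Bhlhe41 (chr6:145858243-145865558) the overlap with Gm43909 was 19.0%, so reads of these pairs may be mixed. For the other members it was at most 4.15%.

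**Figure D1:**
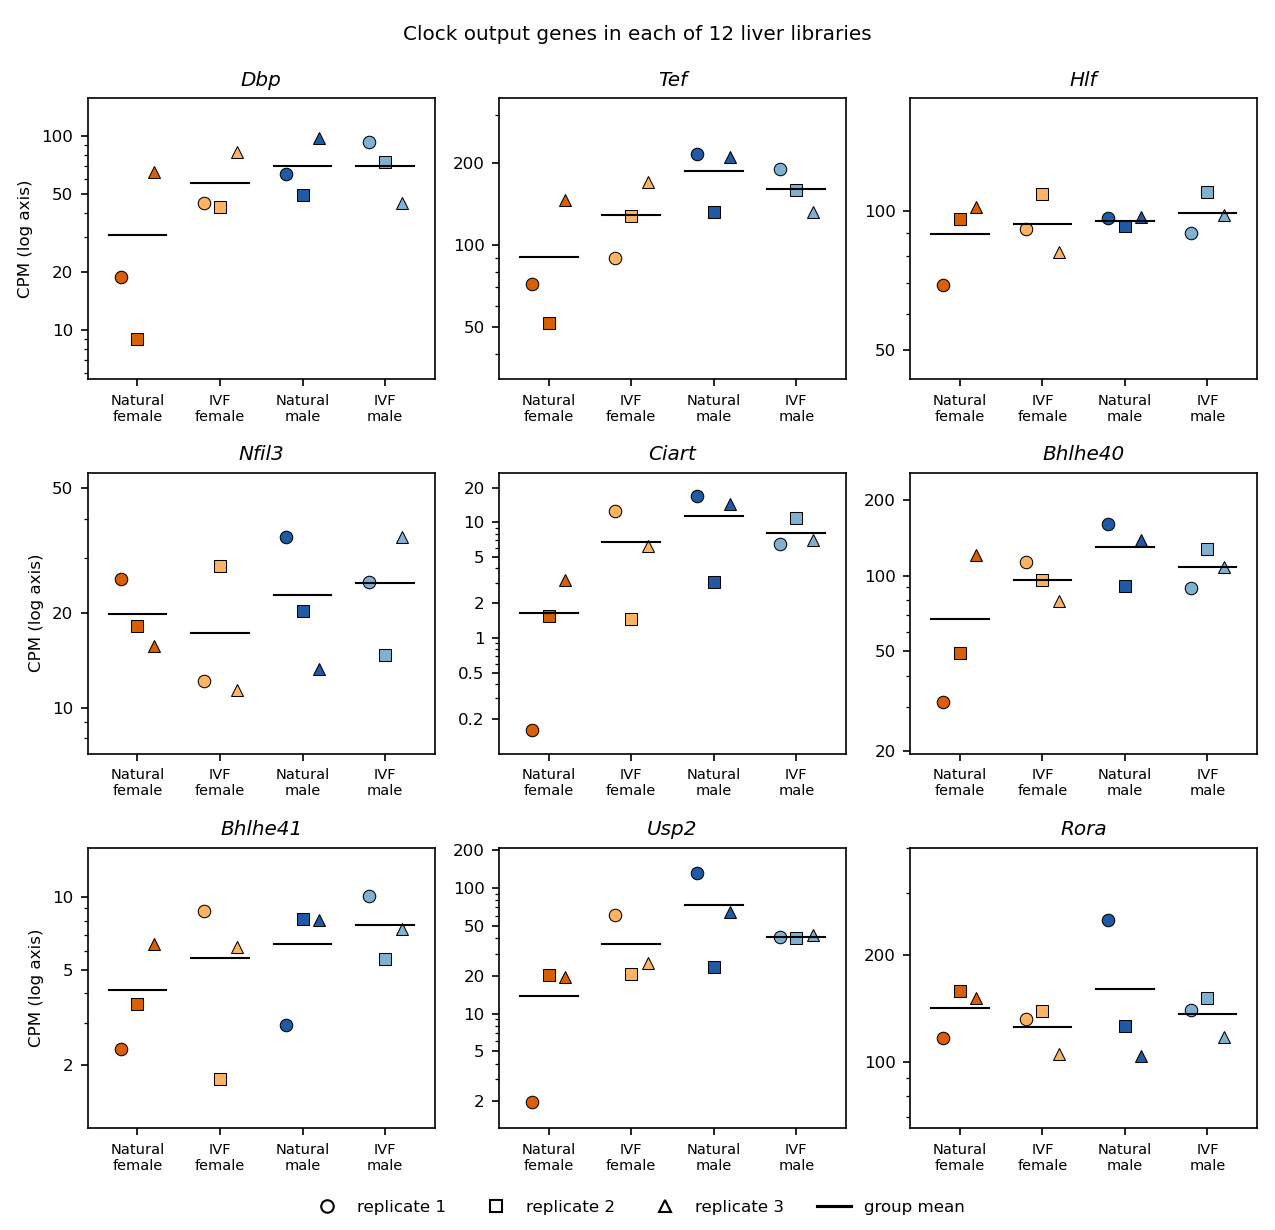
CPM on a log axis for each of the 9 genes in 12 libraries, grouped by conception and sex, with a line at each group's mean and a marker shape for the replicate number. Natural female replicates 1 and 2 sit below the other 10 libraries for Dbp and Tef, while Hlf spans only 69.2 to 110 CPM.

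Dbp and Tef were low in the same 2 animals. Dbp was at 18.7, 8.99 and 64.8 CPM in natural females 1 to 3, at 45.3, 43.2 and 82.5 CPM in IVF females, at 63.8, 49.4 and 97.4 CPM in natural males and at 92.8, 73.0 and 44.99 CPM in IVF males. The 10.8-fold range came from natural female replicates 1 and 2, since the other 10 libraries lay between 43.2 and 97.4 CPM. Tef, at 72.4, 51.9 and 146 CPM in natural females, 89.8, 128 and 170 CPM in IVF females, 215, 132 and 211 CPM in natural males and 190, 160 and 132 CPM in IVF males, had its lowest levels in the same animals. Hlf, the third PAR bZIP factor, varied least of the 9, from 69.2 to 110 CPM, with its lowest level in natural female replicate 1. Its within-group SD of log2 CPM was 0.199, against a median of 0.357 over the 11812 genes averaging 1 CPM or more.

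Nfil3, the repressor at the PAR bZIP motif, did not share that order. It was at 25.8, 18.2 and 15.7 CPM in natural females, 12.2, 28.4 and 11.4 CPM in IVF females, 35.04, 20.3 and 13.3 CPM in natural males and 25.1, 14.7 and 34.98 CPM in IVF males. All 4 groups overlapped, and the 3.07-fold range was spread over every group.

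Ciart and Usp2 had the widest ranges, 104-fold and 66.5-fold, and both were lowest in natural female replicate 1 and highest in natural male replicate 1. Ciart was at 0.160, 1.56 and 3.19 CPM in natural females, 12.5, 1.46 and 6.24 CPM in IVF females, 16.8, 3.05 and 14.6 CPM in natural males and 6.45, 11.0 and 7.06 CPM in IVF males. Its lowest level rested on 4 counts, so the size of that range is uncertain. Usp2 was at 1.97, 20.1 and 19.5 CPM in natural females, 60.9, 20.6 and 25.0 CPM in IVF females, 131, 23.6 and 64.6 CPM in natural males and 40.4, 39.7 and 42.1 CPM in IVF males. The 3 IVF males lay within 1.06-fold of each other for Usp2. Natural males spanned 5.53-fold and natural females 10.2-fold. In within-group spread Ciart stood above 99.2% and Usp2 above 98.6% of the 11812 genes, and Dbp above 94.6%.

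Bhlhe40 was also low in natural female replicates 1 and 2, at 31.4 and 49.5 CPM against 121 CPM in replicate 3. The other libraries had 79.1 to 113 CPM in IVF females, 90.9 to 161 CPM in natural males and 89.5 to 128 CPM in IVF males. Its paralog Bhlhe41 was scarce, from 1.75 to 10.1 CPM, and was lowest in IVF female replicate 2. Rora ranged from 104 to 252 CPM, with both ends in natural males (replicates 3 and 1). Of the 9 genes, 4 had their lowest library in natural female replicate 1, where 6.98% of all genes tested had theirs, and 2 in natural female replicate 2, where 16.9% did. Highest levels fell in natural male replicate 1 for 6 of the 9, where 8.75% of all genes were highest. That library also had the highest summed levels of the fasting and feeding list, 10210 CPM against 4069 to 7566 CPM in the other 11, and of the glucocorticoid response list, 4332 CPM against 711.6 to 2964 CPM. Their part in these levels was not tested.

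**Figure D2:**
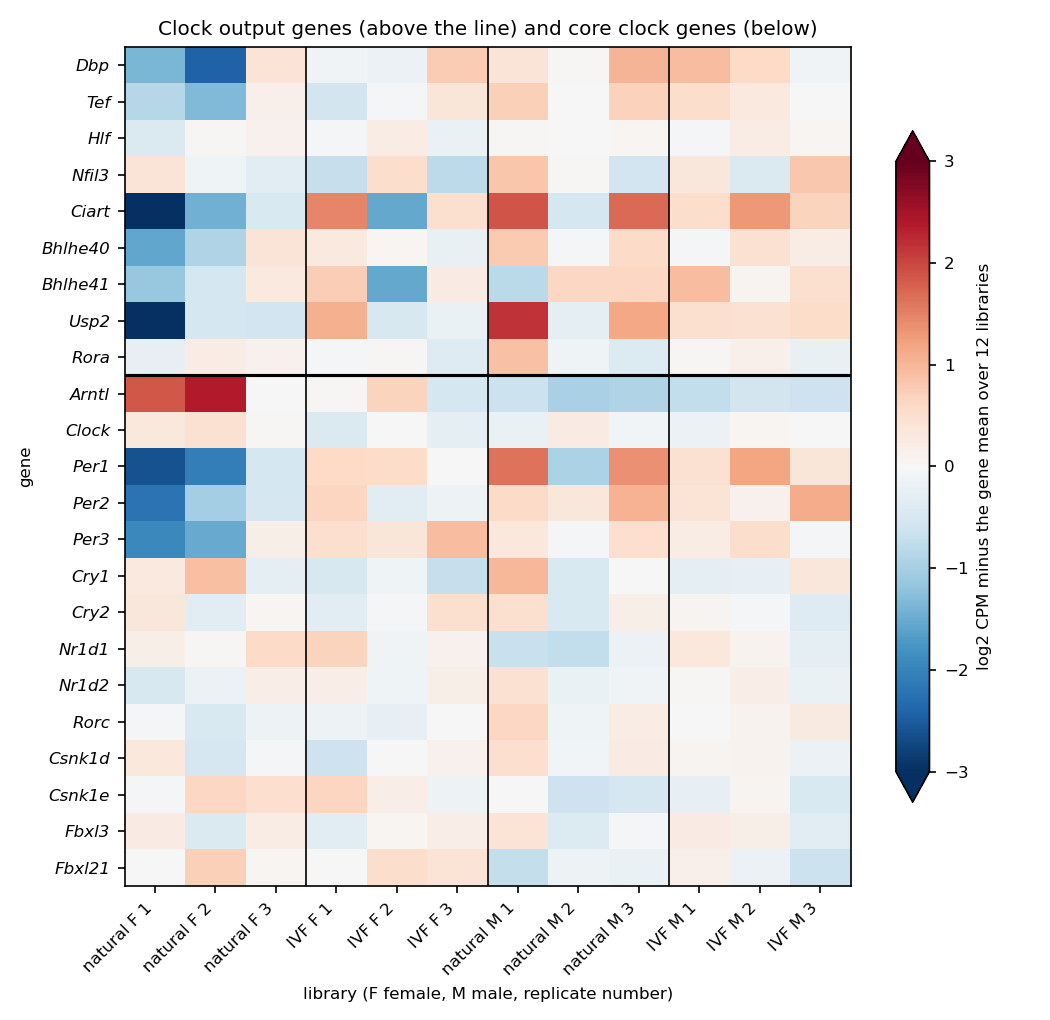
Colour gives the log2 CPM of a library after subtraction of the gene's own mean across the 12, for the 9 clock output genes above the line and the 14 core clock genes that passed the filter below it, with colours capped at 3 in either direction. In natural female replicates 1 and 2, Dbp (-1.37 and -2.42), Tef, Ciart, Bhlhe40 and the Per genes are below their means and Arntl (1.85 and 2.37) is above its own.

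The core clock genes of those 2 animals moved with the outputs. Arntl, the activator's obligate partner, was at 15.5, 22.2 and 4.23 CPM in natural females and between 2.10 and 6.69 CPM in the other 9 libraries. Per1, a repressor of the loop, was at 3.13, 4.55 and 13.6 CPM in natural females and between 10.0 and 60.4 CPM elsewhere. Npas2, which did not pass the filter and was picked after its values were seen, had 113 counts (4.53 CPM) in natural female replicate 1 and 10 counts (1.20 CPM) in replicate 2, and at most 0.416 CPM in the other 10. Natural female replicate 2 was a shallow library and replicate 1 was not, with 23430136 counts. Summed Kupffer cell markers were at 344 and 332 CPM in these 2 libraries, inside the 167 to 508 CPM of the other 10. The hour of collection could not be compared between animals, and its part in these levels was not tested.

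IVF and natural females were compared next. The mean level after IVF was above the natural mean for 7 of the 9 genes and below it for Nfil3 and Rora, and no gene of the 9 was called (edgeR's quasi-likelihood test, adjusted p under 0.05 by Benjamini-Hochberg). The same test called 0% of the 13204 genes, DESeq2 called 0 members and 0.0303% of all genes, and limma voom called 0 genes. Ciart differed most, with a log2 fold change of 2.01 ± 0.94 (SE). IVF females averaged 6.72 ± 5.52 CPM and natural females 1.64 ± 1.51 CPM (SD, n = 3 each), and edgeR's adjusted p was 1. Usp2 averaged 35.5 ± 22.1 CPM and 13.9 ± 10.3 CPM in the same order (SD, n = 3 each), which is 1.36 ± 0.76 (SE) on the log2 scale, again with an adjusted p of 1 in edgeR. It was the 1 member whose libraries did not overlap between these groups, as they did not for 7.42% of all genes, and the gap was narrow, from 20.1 to 20.6 CPM. For Dbp the log2 fold change was 0.88 ± 0.58 (SE), for Tef 0.52 ± 0.37 (SE), for Bhlhe40 0.51 ± 0.41 (SE) and for Bhlhe41 0.40 ± 0.58 (SE). For Hlf it was 0.08 ± 0.19 (SE), for Nfil3 -0.19 ± 0.45 (SE) and for Rora -0.18 ± 0.29 (SE). The median over the members was 0.51, against -0.015 over all genes, of which 47.8% were higher after IVF. At an unadjusted p under 0.05 the count was 0 of 9 members, and 3.7% of all genes.

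These differences moved with single animals of both groups. Without natural female replicate 3 the log2 fold change was 2.05 for Dbp, 1.08 for Tef, 3.28 for Ciart and 1.27 for Bhlhe40. Without replicate 2 it was 0.46 for Dbp and 0.25 for Tef, and without replicate 1 it was 0.17 for Bhlhe40 and 0.83 for Usp2. Of the IVF females, replicate 1 carried the Ciart and Usp2 differences most, which were 1.27 and 0.76 without it. Without IVF female replicate 3 the value was 0.51 for Dbp and 0.27 for Tef, and without replicate 2 it was -0.76 for Nfil3. None of the fits with 1 library left out called a member in this comparison.

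In males the fitted log2 difference was above 0, meaning higher after IVF, for Bhlhe41, Nfil3 and Hlf. Dbp averaged 70.2 ± 24.0 CPM in IVF males and 70.2 ± 24.7 CPM in natural males (SD, n = 3 each), a log2 difference of 0 ± 0.58 (SE). Usp2 had the largest difference, -0.84 ± 0.73 (SE) on the log2 scale. Its means were 40.7 ± 1.23 CPM in IVF males and 72.9 ± 54.0 CPM in natural males (SD, n = 3 each), and edgeR's adjusted p was 1. Without natural male replicate 1, the library of highest Usp2, the log2 difference was -0.12. Ciart had -0.49 ± 0.83 (SE), Bhlhe40 -0.26 ± 0.41 (SE), Rora -0.24 ± 0.29 (SE), Tef -0.21 ± 0.37 (SE), Bhlhe41 0.26 ± 0.56 (SE), Nfil3 0.13 ± 0.44 (SE) and Hlf 0.06 ± 0.19 (SE). No member was called by edgeR, which called 0.00757% of all genes, or by DESeq2, which called 0.0379%, and 0 members had an unadjusted p under 0.05, against 2.69% of all genes. Libraries overlapped between the groups for all 9 members, while they did not for 8.91% of all genes. All 8 Kupffer cell markers passed the filter and none was at 0 counts in any library, and their sum was 166.7 to 249.6 CPM in IVF males against 309.4 to 343.2 CPM in natural males. The 10 hepatocyte markers summed to 96740 to 113500 CPM in IVF males and 124300 to 129200 CPM in natural males, with 1 of 10 higher after IVF and a median log2 difference of -0.395. The 8 glucocorticoid response genes summed to 711.6 to 2063 CPM and 2742 to 4332 CPM in the same order, with 1 of 8 higher after IVF and a median of -1.06. The part of these lists in the members' levels was not tested.

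The difference between the sexes in the IVF effect was tested directly, as the effect in males minus that in females. Its log2 value was -2.50 ± 1.26 (SE) for Ciart and -2.20 ± 1.05 (SE) for Usp2, the largest of the 9, with unadjusted p-values of 0.071 and 0.059 in edgeR and adjusted p-values of 1. The value was negative for 8 of the 9 and 0.32 ± 0.63 (SE) for Nfil3. With scaling by library size alone, 4 of the 9 were positive. With 1 library left out, the value ran from -1.76 (without IVF female replicate 1) to -3.76 (without natural female replicate 3) for Ciart. For Usp2 it ran from -1.48 (without natural male replicate 1) to -2.62 (without natural male replicate 2). For Dbp it was -0.46 without natural female replicate 2 and -2.05 without replicate 3, and no such fit called a member. Neither a member nor any other gene was called by edgeR's adjusted p (0%), while DESeq2 called 0 members and 0.0683% of all genes, and at an unadjusted p under 0.05 there were 0 members, against 3.87% of all genes. The IVF effect on these genes was therefore not shown to differ between males and females.

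**Figure D3:**
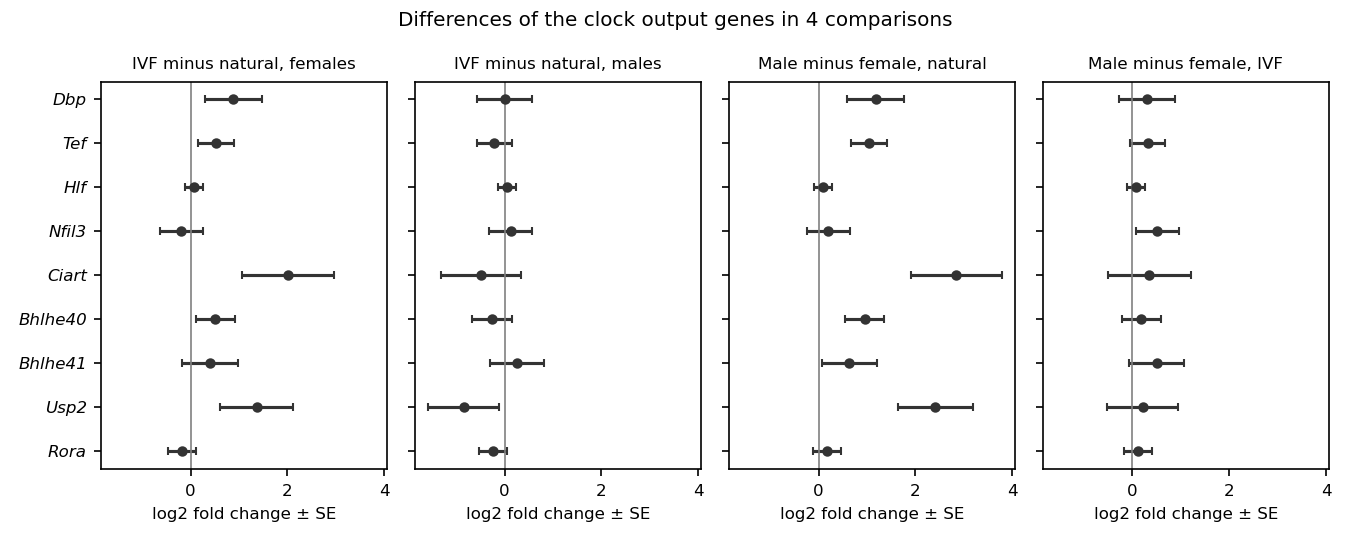
Log2 fold changes with their SE for the 9 genes in 4 comparisons, with a line at 0. In natural animals all 9 male-minus-female values lie above 0, from 0.10 for Hlf to 2.84 for Ciart, and in IVF animals they lie between 0.08 and 0.52.

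Natural males had higher mean levels than natural females for all 9 members, against 47.9% of all genes, but edgeR called none of the 9, where it called 1.77% of all genes. The members' median log2 value was 0.951. With library size as the only scaling, which moved the median over all genes from -0.024 to -0.34, 6 of the 9 were higher and Hlf, Nfil3 and Rora turned. Usp2 averaged 72.9 ± 54.0 CPM in males and 13.9 ± 10.3 CPM in females (SD, n = 3 each), a 5.33-fold difference. On the log2 scale this was 2.41 ± 0.78 (SE), with an adjusted p of 0.167 in edgeR. All 3 males lay above all 3 females, and Usp2 was the 1 member for which this held, as the groups did not overlap for 20% of all genes. Ciart averaged 11.5 ± 7.36 CPM in males and 1.64 ± 1.51 CPM in females (SD, n = 3 each), a log2 value of 2.84 ± 0.94 (SE) with an edgeR adjusted p of 0.178. Tef averaged 186 ± 46.5 CPM and 90.1 ± 49.5 CPM (SD, n = 3 each), a log2 value of 1.04 ± 0.37 (SE) with an edgeR adjusted p of 0.205, and Bhlhe40 had 0.95 ± 0.41 (SE) with 0.306. These 4 were the members with an unadjusted p under 0.05, which 14.9% of all genes had. Dbp had a log2 value of 1.18 ± 0.59 (SE) and an edgeR adjusted p of 0.372, and Bhlhe41 had 0.64 ± 0.57 (SE) with 0.641. Summed glucocorticoid response genes, a list that includes Per1, were at 2742 to 4332 CPM in natural males and 815.5 to 1356 CPM in natural females. Immediate early and heat shock genes summed to 264.7 to 562.3 CPM and 77.9 to 176.3 CPM in the same order. Their part in the members' levels was not tested.

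DESeq2's Wald test called 2 members in natural animals, Usp2 (adjusted p of 0.0228) and Ciart (0.0256), beside 5.14% of all genes. Leaving out natural female replicate 3 and testing with edgeR called 3, Bhlhe40 (adjusted p of 0.0251), Dbp (0.0436) and Tef (0.0478), beside 1.42% of all genes. That fit compares the males with the 2 females of low Dbp and Tef only. Without natural female replicate 2 the log2 value was 0.76 for Dbp and 0.77 for Tef, and without replicate 1 it was 0.61 for Bhlhe40. Without natural male replicate 1, in which Usp2 was highest, it was 1.69 for Usp2 (edgeR adjusted p of 0.387). For Ciart it ran from 2.23 without natural female replicate 1 to 4.10 without replicate 3, with edgeR adjusted p-values of 0.25 and 0.149.

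Among IVF animals the means of all 9 members were again higher in males, or of 8 with scaling by library size alone, where Hlf turned. The members' log2 values, male against female, ran from 0.08 ± 0.19 (SE) for Hlf to 0.52 ± 0.45 (SE) for Nfil3, with 0.30 ± 0.58 (SE) for Dbp, 0.31 ± 0.37 (SE) for Tef, 0.35 ± 0.86 (SE) for Ciart and 0.21 ± 0.73 (SE) for Usp2. The median was 0.299, against 0.00772 over all genes. No member was called, against 2.19% of all genes, 0 had an unadjusted p under 0.05, against 14.9%, and 0 were free of overlap, against 21.8%. This comparison shares the IVF groups with those above and was tested against the natural one only as the interaction already given.

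Genes of the wider clock pathway came from lists chosen with earlier results of these data known. Of 16 core clock genes 14 passed the filter. Between natural males and females 1 of these was called, Arntl, lower in males by a log2 value of -2.57 ± 0.50 (SE), with an edgeR adjusted p of 0.0244, and 0 were called higher. Its level was 15.5 and 22.2 CPM in natural female replicates 1 and 2 and 4.23 CPM in replicate 3, against 2.10 to 2.65 CPM in natural males. Values with 1 library left out are not given for the genes of these lists. At an unadjusted p under 0.05 there were 8 of the 14, against 14.9% of all genes. Members of the list went both ways, 7 of 14 being higher in males, and its median was 0.017, against -0.024 over all genes. Of 16 other clock-controlled liver genes, all of which passed the filter, 7 had an unadjusted p under 0.05 here, and the list median was 0.78. In natural males 3 were called higher and 0 lower, beside 1.77% of all genes called. They were Tsku, a secreted hepatic protein (3.43 ± 0.54, SE), Elovl3, a fatty acid elongase (3.68 ± 0.67, SE), and Alas1, the rate-limiting enzyme of haem synthesis (2.67 ± 0.59, SE), with edgeR adjusted p-values of 0.00694, 0.0178 and 0.0445. In IVF animals 2 of the 16 were called higher in males, Elovl3 (4.47 ± 0.70, SE) and Tsku (2.33 ± 0.52, SE), with edgeR adjusted p-values of 0.00566 and 0.0396. No core clock gene was called there, beside 2.19% of all genes. For IVF against natural conception edgeR called 0 genes of either list in either sex. At an unadjusted p under 0.05 there were 5 of 14 core clock genes and 2 of 16 others in females, against 3.7% of all genes. In males there were 1 and 2, against 2.69% of all genes. Those of smallest p in females were Arntl (-1.57 ± 0.49, SE), Per3 (1.42 ± 0.45, SE), Alas1 (2.28 ± 0.58, SE) and Wee1, a cell cycle kinase (1.23 ± 0.45, SE), each with an edgeR adjusted p of 1. In males they were Nr1d1, the REV-ERB alpha receptor (0.57 ± 0.26, SE), Csnk1d, a kinase of the PER proteins (-0.24 ± 0.25, SE), Cyp2b10, a drug-metabolizing P450 (-2.33 ± 0.70, SE), and Por, the P450 reductase (-0.73 ± 0.25, SE), again with an edgeR adjusted p of 1. For the difference between the sexes 0 genes of either list were called and 3 of each had an unadjusted p under 0.05 in edgeR, against 3.87% of all genes. Arntl (1.78 ± 0.69, SE), Per1 (-2.19 ± 0.87, SE), Por (-1.22 ± 0.35, SE) and Alas1 (-2.10 ± 0.80, SE) ranked first.

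Likeness between genes over the 12 animals was measured with Dbp as the reference. Of the 11811 other genes averaging 1 CPM or more, Tef had the highest Pearson r with Dbp, 0.94, with a permutation p of 1e-05, the smallest that 100000 resamples can give, and an adjusted p of 0.066 over 13203 genes. Spearman's rho was 0.87 (permutation p of 0.00035, adjusted 0.393). Without natural female replicates 1 and 2, the libraries farthest from the Dbp median, r was 0.80 (permutation p of 0.00563, adjusted 0.358), and with each library taken as its deviation from its group mean it was 0.92. The relation of these PAR bZIP factors was thus still present without the animals that set the range, and it missed the threshold after adjustment over all genes. For Bhlhe40, r was 0.74 (permutation p of 0.0124, adjusted 0.244) with a rho of 0.45 (permutation p of 0.141, adjusted 0.51), and without those libraries it was 0.09 (permutation p of 0.801), so that relation rested on them. Ciart had an r of 0.69 (permutation p of 0.0204, adjusted 0.244) and a rho of 0.59 (permutation p of 0.0494, adjusted 0.44). Neither passed after adjustment, and without those libraries r was 0.42 (permutation p of 0.231, adjusted 0.633). Without both shallow libraries, of which natural female replicate 2 is 1, it was 0.86 (permutation p of 0.00517, adjusted 0.999). Hlf, Usp2, Bhlhe41, Nfil3 and Rora had r of 0.26, 0.55, 0.51, -0.20 and -0.09, rho of 0.04, 0.48, 0.51, -0.44 and -0.19, and permutation p-values for r of at least 0.0829. No gene of the 13203 was called for r or for rho, and 2581 had an unadjusted p under 0.05 for r.

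**Figure D4:**
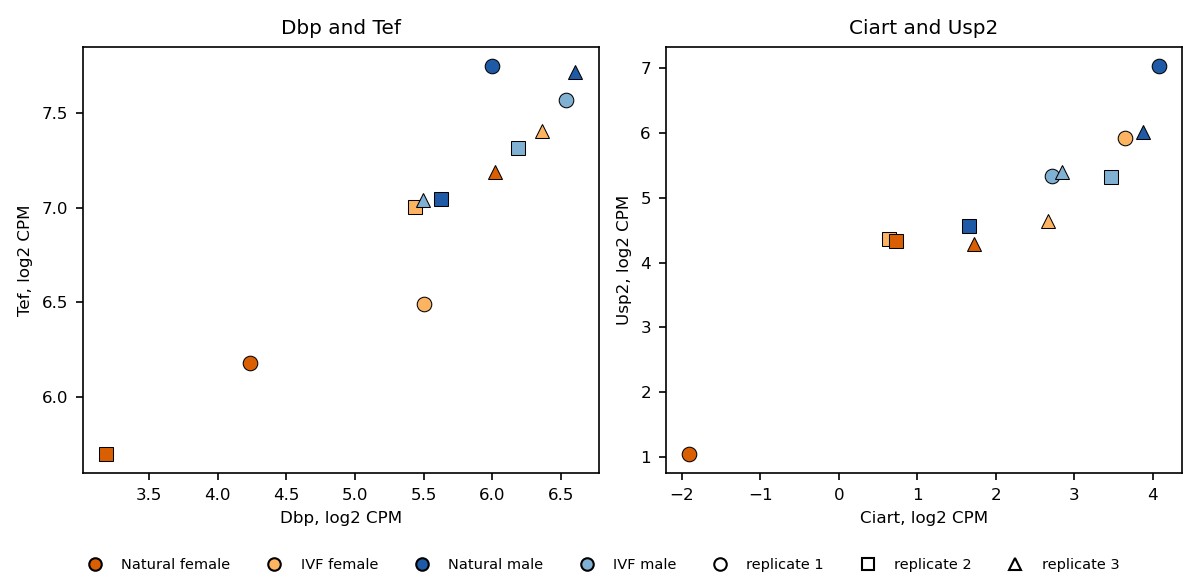
Each point is 1 library, with log2 CPM of Dbp against Tef on the left and of Ciart against Usp2 on the right, coloured by group and shaped by replicate number. Tef follows Dbp over the whole range (r = 0.94), and natural female replicate 1 stands alone at the lower end for Ciart and Usp2 (r = 0.95).

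Among the 36 pairs of members, which are described without a test, Ciart and Usp2 had the highest r, 0.95, with a rho of 0.93. It was 0.88 without the 2 libraries farthest from the Ciart median and 0.90 for deviations from the group means. Ciart also went with Bhlhe40, with an r of 0.87, or 0.80 without the 2 farthest libraries. Nfil3 and Bhlhe41 had -0.45, or -0.69 for deviations. The points in each pair share a library and its depth.

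Among the genes most like Dbp after Tef were Srebf1, which encodes the lipogenic factor SREBP1 (r of 0.93, 0.74 without the 2 farthest libraries), Stard4, a sterol carrier (0.92 and 0.76), and Sertad1, a cell cycle regulator (0.89 and 0.53). Those least like it were Stk24, a kinase (-0.94 and -0.66), Brip1, a DNA repair helicase (-0.91 and -0.85), Tab2, an adaptor of TAK1 signalling (-0.91 and -0.64), Arntl (-0.91 and -0.51) and Slc25a46, a mitochondrial outer membrane protein (-0.90 and -0.48). Adjusted permutation p-values of r for these 8 genes over all libraries ran from 0.132 to 0.244.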

How the data were processed

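The authors deposited 1 table of whole-number read counts per gene symbol, with a column for each of the 12 libraries. The submitters' processing notes name Trimmomatic 0.32, STAR 2.3.0e, featureCounts 1.5.0 and the build mm10. Annotation, strand setting and the treatment of multiply matching reads are not given in the sources used here. Columns were matched by sample title. Replicates were numbered in accession order and are not paired.

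Counts were tested with edgeR 4.0.16 in R 4.3.3 (filterByExpr by group, TMM, 1 quasi-likelihood model over 4 groups of n = 3), with Benjamini-Hochberg adjustment over all genes passing the filter and a threshold of 0.05. The SE is the log2 fold change over the root of F. Correlations used log2 CPM with a prior count of 2. Alternatives were DESeq2 1.42.0, voom in limma 3.58.1, other scalings and filters, fits to the groups compared, leaving out each library, and leaving out both shallow libraries. The code was tested on simulated data. Loci and exon lengths came from GENCODE M21 (GRCm38, the assembly of mm10), promoters from RefSeq. The members, lists and alternatives were chosen with earlier results of these data known. All 9 members are reported. From each list the called genes are named, or the 2 of smallest p, and for Dbp and Nfil3 the 5 genes of highest and of lowest r, of which 1 is not reported here.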

Additional observations from a re-analysis of the deposited data

How the results depend on the processing

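Natural males had the 3 deepest libraries, Ciart had only 4 counts in natural female replicate 1, and groups of 3 limit every difference. Of 45 differences of members, 396 alternative values other than left-out libraries gave 379 with the same direction and no call, 15 of turned direction and 2 called. Those at an adjusted p under 0.1 reuse the main fit, so their direction could not turn. Of 540 values with 1 library left out, 33 turned and 3 were called, those of natural female replicate 3 given above. Many of the 540 left out a library of a group not compared, which could hardly move the log2 value. Both totals therefore overstate how steady the differences were. The cause of the turned directions and added calls was not tested. DESeq2's Wald test called 4 genes for IVF in females, 5 for IVF in males, 9 for the difference of effects, 678 for sex in natural animals (2 members) and 721 for sex in IVF animals. Voom called 0 for IVF in males, where edgeR called 1. Sex in natural animals, with 234 genes called, gave 510 with scaling by library size alone (88 higher and 422 lower against 118 and 116), 442 at an adjusted p under 0.1 and 139 in a fit to those groups only. Sex in IVF animals gave 495 at an adjusted p under 0.1, against 289. With 1 library left out, the counts ran from 111 to 263 genes and 0 to 3 members for sex in natural animals, 137 to 348 genes for sex in IVF animals and 0 to 1 gene for IVF in males.

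Turned log2 values reached 0.418, and some were larger in size than the main value. That highest one was for Rora in the difference of effects without natural male replicate 1, against -0.059 in the main fit. Scaling by library size alone gave 0.144 for Dbp (IVF in males), 0.184 for Hlf, 0.142 for Bhlhe41 and 0.149 for Rora (difference of effects), -0.221 for Hlf, -0.103 for Nfil3 and -0.134 for Rora (sex, natural) and -0.036 for Hlf (sex, IVF). Dbp for IVF in males was also 0.001 with a minimum mean of 1 CPM, 0 by voom and 0.003 in a fit to those groups. The difference of effects was 0.202 for Bhlhe41 and 0.042 for Rora by voom, and 0.366 for Bhlhe41 without both shallow libraries, where its IVF difference in females was -0.114. The r with Dbp was -0.296 for Hlf without the 2 farthest libraries and 0.087 for Rora without both shallow ones. With 1 library left out, IVF in females ranged from -0.073 to 0.212 for Hlf, -0.761 to 0.046 for Nfil3 and -0.037 to 0.91 for Bhlhe41. IVF in males ranged from -0.252 to 0.31 for Dbp, -0.025 to 0.124 for Hlf, -0.202 to 0.571 for Nfil3, -0.087 to 0.467 for Bhlhe41 and -0.472 to 0.24 for Rora. The difference of effects ranged from -0.16 to 0.128 for Hlf, -0.007 to 0.885 for Nfil3, -0.656 to 0.29 for Bhlhe41 and -0.295 to 0.418 for Rora. Sex in natural animals ranged from -0.05 to 0.215 for Hlf, -0.248 to 0.474 for Nfil3 and -0.299 to 0.413 for Rora, and sex in IVF animals from -0.013 to 0.201 for Hlf, -0.165 to 1.065 for Ciart and -0.065 to 0.805 for Usp2. A fit to the groups compared was not run for the difference of effects, which uses all groups. No paired analysis was possible because replicate numbers were given in accession order.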

Other observations

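Nfil3 had neighbours other than those of Dbp. Over the 12 libraries, the genes averaging 1 CPM or more with the highest r to Nfil3 were Dync2h1, a motor of ciliary transport (0.83), Ago3, an Argonaute protein (0.82), Atm, the DNA damage kinase (0.82), C2cd3, a centriole protein (0.79), and Zscan20 (0.79). Those of lowest r were Acat2 (-0.90), Mmab (-0.86), Pmvk (-0.86), Hmgcs1 (-0.86) and Nfe2 (-0.83), of which Acat2, Pmvk and Hmgcs1 encode enzymes of the cholesterol pathway. These values are a description without a test, and the genes share libraries and their depth.

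Of 10 immediate early and heat shock genes tested, 1 was called, Hspa1b, an inducible HSP70 gene, higher in natural males than in natural females by 3.64 ± 0.77 (SE) on the log2 scale (edgeR adjusted p of 0.0355), with a list median of 0.434. In that comparison edgeR called 1.77% of all genes. No gene of the 12 of fasting and feeding or of the 8 of the glucocorticoid response was called by edgeR in any comparison, with 0 to 4 and 1 to 4 of them at an unadjusted p under 0.05. Of the 8 Kupffer cell markers, 2 were called lower in IVF males than in IVF females, Vsig4 (-1.81 ± 0.27, SE, edgeR adjusted p of 0.0039) and Clec4f (-1.05 ± 0.21, SE, edgeR adjusted p of 0.0215). Between these groups edgeR called 2.19% of all genes. Among the 8 markers, 7 had an unadjusted p under 0.05 in edgeR, against 14.9% of all genes, and 0 were higher in IVF males. Of 6 adipocyte markers 1 passed the filter, Cidec, a lipid droplet protein also made by fatty hepatocytes, and it was higher in IVF males than in IVF females by 1.93 ± 0.43 (SE, edgeR adjusted p of 0.0424). Markers of sinusoidal endothelial cells, stellate cells, cholangiocytes, lymphocytes, neutrophils, pancreatic acinar cells and hepatocytes had 0 calls.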
